A study of Mus musculus with 4 samples.

Results

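Expression of the genes that load and present peptides on MHC class I and class II molecules was compared between 2 groups of mouse adenoma colonoid lines, which are cultured epithelium derived from adenomas of the colon. The genes were 10 named members of the pathway, picked by symbol out of the one expression table of 16857 genes: the class I heavy chains H2-K1 and H2-D1, their partner B2m, the loading genes Tap1, Tap2 and Tapbp, the transactivators Nlrc5 and Ciita, and the class II genes Cd74 and H2-Aa. A row was found for 9 of them, and H2-Aa had none and is not analysed here. Lines 75 and 179 formed group G0 and were labelled heterozygous for the Tert allele LSL-mTERT, and lines 157 and 236 formed group G2 and were labelled homozygous for it. All 4 lines carried the Apcmin name and were labelled Apc-null, so both groups share the loss of Apc. No treatment or animal age is given, each line gave 1 library, and the labels do not say that each line came from a different mouse, so the p-values below measure only the spread between these lines.

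MHC class I molecules display peptides from proteins made inside the cell and are found on nearly all nucleated cells. The proteasome cuts the peptides, the transporter made of Tap1 and Tap2 carries them into the endoplasmic reticulum, and tapasin, the product of Tapbp, holds the empty heavy chain and beta-2-microglobulin at the transporter until a peptide binds. Class II molecules display peptides from endosomes, are made mainly by professional antigen-presenting cells, and can be switched on in intestinal epithelium by interferon gamma through the transactivator Ciita. Nlrc5 is the corresponding transactivator of class I genes.

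The 4 libraries held between 16545429 and 17901744 counts. Levels are normalized counts, the counts recovered from the deposited log2 values divided by the authors' size factors, and differences are on the log2(normalized count + 1) scale, G2 minus G0. Tert stood at 93.3 and 97.5 normalized counts in the G0 libraries and at 0.0 and 1.0 in the G2 libraries. The summed level of 4 Y-linked transcripts was 0.0 in both G0 libraries and 1667 and 1630 in G2, so the group and the presence of Y-linked transcripts cannot be told apart in any result below. Of all genes tested, 10.5% passed limma at an adjusted p under 0.05. Of 8 epithelial markers, Epcam, Cdh1, Krt8, Krt18 and Krt19 were at 5995 or more in every library and Cdx1 was at 2.0 to 8.1. In this list 1 rose and 2 fell: Cdh1, the gene of E-cadherin, from 14095 and 13728 in G0 to 25575 and 24578 in G2 (limma adjusted p = 0.0171), Vil1, the gene of the brush border protein villin, from 4734 and 6383 to 1731 and 786.9 (0.0103), and the colon identity gene Cdx2 from 2395 and 3199 to 270.3 and 186.7 (0.00043). These 3 calls were lost when any 1 library was left out (adjusted p from 0.0909 to 0.230), and those of Cdh1 and Vil1 also without the intensity trend in the variance prior (0.0686 and 0.0983). Of 5 leukocyte markers, Ptprc, which encodes CD45, had a count of 0 in all 4 libraries, and the 4 tested had a median log2 fold change of 1.04, with 0 past limma and 2 at an unadjusted p under 0.05. Laptm5 was at 1.0 and 1.0 in G0 and at 7.1 and 23.5 in G2 (adjusted p = 0.0550), Cd53 at 2.9 and 4.1 against 31.3 and 7.8 (0.147), Coro1a at 11.8 and 14.2 against 6.1 and 4.9 (0.214), and Ptpn6, which made up most of the summed level of 246.5 to 391.1 in G0 and 335.8 to 406.6 in G2, at 230.7 and 371.8 against 291.5 and 370.5. The part of such cells in the results below was not tested.

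Tapbp was the one member that rose in G2. It encodes tapasin and lies on chromosome 17 from 33919478 to 33929290 (GRCm38.p6). Its level was 1905 and 1882 normalized counts in the G0 libraries and 2736 and 3088 in the G2 libraries. Both G2 lines lay above both G0 lines, and the G0 lines lay close together. The means were 1894 ± 16.0 and 2912 ± 248.7 (SD, n = 2 lines each), a 1.54-fold rise, with a log2 fold change of 0.62 and an SE of 0.13 (adjusted p = 0.0306 by limma over 13981 genes). Since the samples are bulk RNA, a change in the share of cells of a type and a change in RNA per cell cannot be told apart, here or below. The call needed all 4 libraries. The limma adjusted p became 0.179 when G0 replicate 1 was left out and 0.203 when G0 replicate 2 was, with log2 fold changes of 0.63 and 0.61. Leaving out G2 replicate 1 or its partner G2 replicate 2 gave 0.175 and 0.240, with log2 fold changes of 0.71 and 0.53. It was also lost when the variance prior had no intensity trend (adjusted p = 0.133).

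Among the 8 members that passed the low-level filter, 1 was called and 7 were not, against a background of 10.5% of all genes tested, with 5.93% called higher and 4.56% called lower in G2. With 8 genes a share of this size is near the background. An unadjusted p under 0.05 was reached by 2 members, Tapbp and B2m, and by 26.8% of all genes tested. The median log2 fold change of the 8 was 0.06, and that of all genes 0.012. For 4 members the groups did not overlap, while 57.8% of all genes tested had groups that did not overlap. An exact two-sided permutation test of 2 against 2 libraries cannot give a p below 0.333, so no gene was tested that way.

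**Figure D1:**
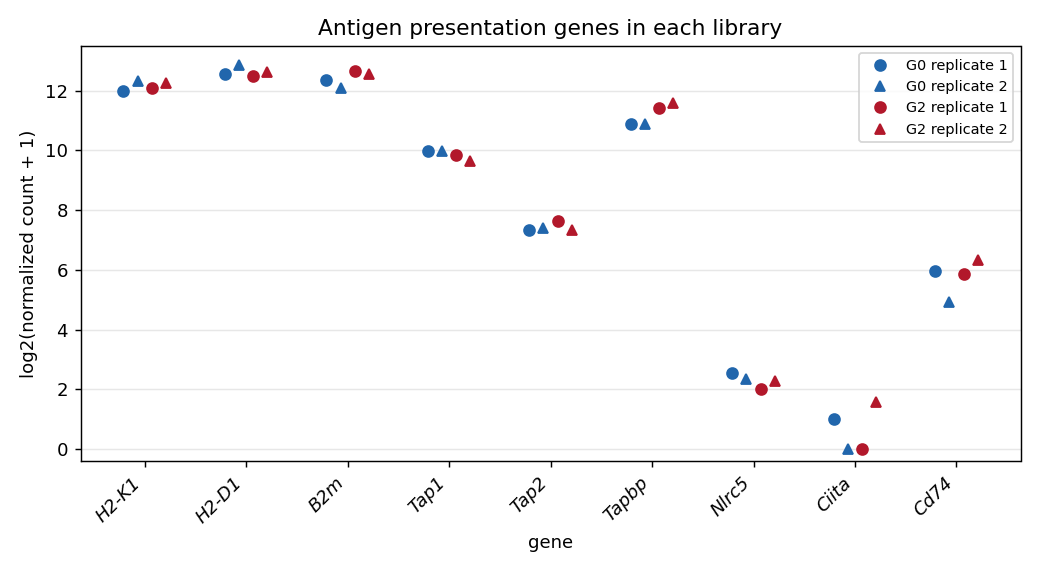
Level of each member in each library as log2(normalized count + 1), with G0 in blue, G2 in red, circles for replicate 1 and triangles for replicate 2. The class I genes H2-K1, H2-D1 and B2m sit near the top, and Nlrc5 and Ciita lie close to 0. Both red points stand above both blue ones for Tapbp and for B2m.

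H2-K1 and H2-D1 encode the classical class I heavy chains, the polymorphic subunits that hold the peptide. H2-K1 (chromosome 17, 33996012 to 34000619) stood at 4099 and 5129 normalized counts in G0 and at 4351 and 4878 in G2. The groups overlapped fully, with both G2 lines between the 2 G0 lines. Its log2 fold change was 0.01 with a 95% interval of -0.37 to 0.38 (limma adjusted p = 0.985), which spans a ratio of 0.775 to 1.30. H2-D1 (chromosome 17, 35263094 to 35267497) stood at 5977 and 7399 in G0 and at 5792 and 6242 in G2. Again G0 replicate 2 was the highest library. The log2 fold change was -0.15, with an interval of -0.51 to 0.22 (limma adjusted p = 0.587). The reads of related heavy chains can be exchanged in counting: of the 50-base windows along the longest annotated transcript, 8.11% for H2-K1 and 12.0% for H2-D1 occur in another H2 gene as well. The normalized counts of all 17 class I heavy chain genes of the H2-K, H2-D, H2-Q, H2-T and H2-M series in the table were therefore also summed, which gave 11832 and 15007 in G0 and 11642 and 13159 in G2. That sum had a log2 fold change of -0.11 with an interval of -0.52 to 0.31 (limma adjusted p = 0.733), and H2-K1 and H2-D1 made up 83.5% to 87.1% of it. The labels do not give the mouse strain, and the reference genome is that of C57BL/6J; the part of strain differences in these polymorphic genes was not tested.

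B2m encodes beta-2-microglobulin, the invariant chain that every class I heavy chain pairs with, on chromosome 2 from 122147687 to 122153082. It stood at 5293 and 4356 normalized counts in G0 and at 6518 and 5963 in G2. Both G2 lines were above both G0 lines. The difference was 1.29-fold, with a log2 fold change of 0.38 and an interval of 0.02 to 0.73, and it did not pass after adjustment (unadjusted p = 0.0418, limma adjusted p = 0.169).

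The sequences before the start sites are shown because they hold the elements that class I genes are known to share. The enhanceosome of class I and class II promoters is assembled by RFX, CREB/ATF and NF-Y factors on X and Y boxes, and class I promoters also bind NF-kappaB and interferon regulatory factors. Below are the 250 bases before 1 RefSeq start of H2-K1 (chr17:34000348-34000597, minus strand) and before that of B2m (chr2:122147437-122147686, plus strand), both from the GRCm38.p6 table. The H2-K1 window lies inside the RefSeq span of the gene, which reaches farther upstream, to 34000619. Another listed H2-K1 start has the window chr17:34000334-34000583, which is not shown. Capitals mark matches to the motifs searched.

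H2-K1: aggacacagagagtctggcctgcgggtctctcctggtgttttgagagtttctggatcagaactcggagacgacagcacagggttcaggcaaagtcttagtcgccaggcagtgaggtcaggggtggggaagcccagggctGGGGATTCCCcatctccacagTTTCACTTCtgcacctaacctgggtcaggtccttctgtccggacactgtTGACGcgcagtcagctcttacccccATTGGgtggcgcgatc

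B2m: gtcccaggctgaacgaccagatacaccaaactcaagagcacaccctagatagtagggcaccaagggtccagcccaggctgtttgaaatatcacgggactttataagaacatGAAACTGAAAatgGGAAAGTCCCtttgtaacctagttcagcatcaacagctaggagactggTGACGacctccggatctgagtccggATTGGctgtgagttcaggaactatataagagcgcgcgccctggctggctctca

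Reading from the left, H2-K1 held an NF-kappaB element, GGGGA followed directly by TTCCC, then TTTCACTTC, which is the interferon response motif GAANNGAAA on the other strand, then TGACG, the core of the X2 box, and ATTGG, the Y box motif CCAAT on the other strand. B2m held a longer interferon response motif, GAAA and GAAA set 2 bases apart, an NF-kappaB motif on the other strand, GGGA and TTTCC set 1 base apart, TGACG and ATTGG. The first pair stands in the opposite order to that in H2-K1, and the second pair in the same order. The upstream pair of elements is nearly the same in H2-K1 (chr17:34000429-34000458, minus strand) and H2-D1 (chr17:35262923-35262952, plus strand), where 29 of 30 bases are identical. Each H2-K1 and H2-D1 stretch below was cut from motif to motif, so the bases that the motifs fix are identical by selection. In the GENCODE annotation, 1 H2-D1 transcript starts farther upstream, and its UTR covers the 30 bases of both H2-D1 stretches shown.

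H2-K1: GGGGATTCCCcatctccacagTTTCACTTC

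H2-D1: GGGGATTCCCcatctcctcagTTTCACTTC

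The pair nearer to the start (chr17:34000359-34000388, minus strand, and chr17:35262993-35263022, plus strand) has 23 of 30 bases identical, the motif bases included, with the capitals in the same places.

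H2-K1: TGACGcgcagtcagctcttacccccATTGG

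H2-D1: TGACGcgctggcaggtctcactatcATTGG

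Tap1, which did not pass, matched CCAAT and TGACG in its window and no interferon response or NF-kappaB form. Tapbp, the member that rose, had matches to 1 of the 10 motifs in the 250 bases before its RefSeq start, namely CCAAT, and the match nearer to the start (chr17:33919302-33919331, plus strand) is shown. In GENCODE this stretch is also exon of other genes: all 30 bases lie in an exon of Gm19412, and 24 of them in the UTR of the upstream gene Zbtb22.

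Tapbp: ttaaaatatttATTGGtcacttcacttggc

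All motifs were searched on both strands in the same 250-base window of 32851 annotated starts. CCAAT occurred in 33.8% of them, TGACG in 17.8%, TTCNNNGAA in 7.02%, GAANNGAAA in 6.31%, AGCAACNG in 4.14%, TAGCAAC, which can overlap it, in 3.16%, the longer interferon response motif in 2.98%, and the NF-kappaB forms in 0.356% (GGGA and TTTCC 1 base apart), 0.323% (GGGGA and TTCC 1 base apart) and 0.0852% (GGGGA then TTCCC). The motif TTCNNNGAA is the interferon gamma activated site, and TAGCAAC and AGCAACNG are X1 box cores. GAANNGAAA and the last NF-kappaB form were added after the plan, so their shares do not measure how rare the H2-K1 and H2-D1 matches are. A match describes letters in a window and shows no binding.

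Tap1 and Tap2 encode the subunits of the peptide transporter, and both lie on chromosome 17 (34187556 to 34197225 and 34204479 to 34216321), with Psmb8 between them (34198195 to 34201454). Tap1 stood at 1016 and 1003 normalized counts in G0 and at 920.8 and 797.6 in G2. Both G2 lines were below both G0 lines, and the log2 fold change of -0.24 (interval -0.58 to 0.11) did not pass (limma adjusted p = 0.337). Tap2 stood at 161.0 and 169.6 in G0 and at 196.7 and 162.3 in G2. These groups overlapped, with a log2 fold change of 0.11 and an interval of -0.42 to 0.64 (limma adjusted p = 0.781). The point estimates of Tap1 and Tapbp, whose products work in one complex, thus had opposite signs, but the difference between the genes was not tested.

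Nlrc5, the class I transactivator (chromosome 8, 94434335 to 94527272), was close to the limit of detection. It had 5 and 4 counts in the G0 libraries and 3 and 4 in the G2 libraries. Summed over a group these were 9 counts (95% exact Poisson interval 4.12 to 17.1) and 7 counts (2.81 to 14.4), and the intervals cover counting error only. The log2 fold change was -0.30 with an interval of -1.73 to 1.13 (limma adjusted p = 0.785), so a difference of 2-fold in either direction was not detectable at this depth. Abundant H2-K1, H2-D1 and B2m transcripts were measured in libraries that held very few Nlrc5 counts.

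Ciita, the class II transactivator (chromosome 16, 10480014 to 10531064), had 1 and 0 counts in G0 and 0 and 2 in G2. It did not pass the filter of a mean of 1 normalized count and was not tested. Both groups lay at or under a floor of 3 counts per library, and no fold is given.

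Cd74 encodes the invariant chain, which fills the groove of new class II molecules and steers them to endosomes (chromosome 18, 60803849 to 60812652). It stood at 61.9 and 29.5 normalized counts in G0 and at 57.5 and 80.2 in G2. The groups overlapped, and G0 replicate 2 was the lowest library. The log2 fold change was 0.65 with a wide interval of -0.36 to 1.67 (limma adjusted p = 0.370); it was 1.18 without G0 replicate 1 and 0.13 without G0 replicate 2.

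**Figure D2:**
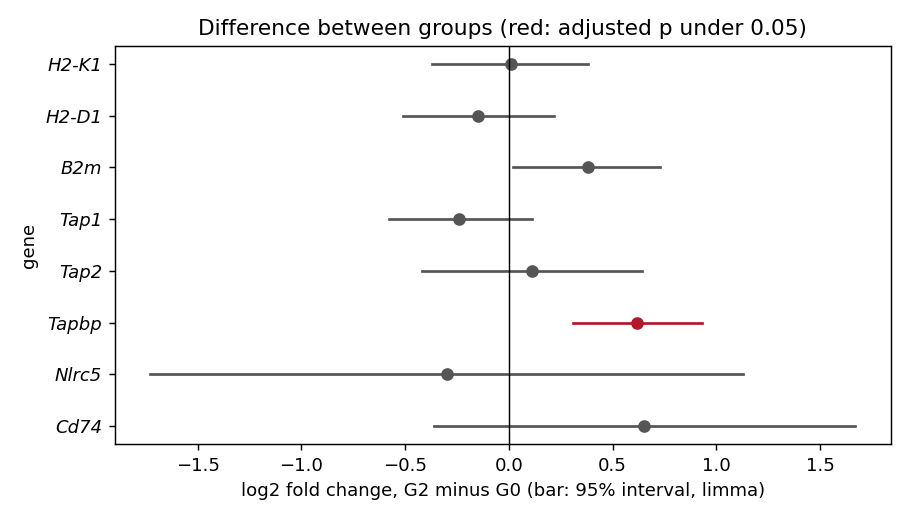
Log2 fold change of each tested member, G2 minus G0, as a point with its 95% interval from limma as a bar; red marks an adjusted p under 0.05. Tapbp, at 0.62 with an interval of 0.31 to 0.93, is the red point, the B2m interval of 0.02 to 0.73 lies just above 0, and those of Nlrc5 and Cd74 are the widest.

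Levels of different genes were compared per kilobase of annotated exon. B2m was highest, at 5060 to 7580 normalized counts per kilobase over the 4 libraries, followed by H2-D1 at 2250 to 2870, H2-K1 at 1400 to 1750, Tapbp at 519 to 851 and Tap1 at 146 to 186. With these lengths the ranges of the 5 genes did not overlap. Each length joins all annotated exons of a gene, and the length of a single transcript was not tried. Tap2 at 42.6 to 52.0 and Cd74 at 17.5 to 47.7 did overlap each other. Nlrc5 lay at 0.356 to 0.578 and Ciita at 0.0 to 0.205. On this scale 99.3% of the tested genes with a known length had a lower mean level than B2m, 96.4% a lower one than H2-K1 and 2.94% a lower one than Nlrc5.

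The wider pathway was described with 12 lists of 146 genes in all, of which 122 had a row and 112 were tested. Across them 8 genes rose, 5 fell and 99 did not pass, so 11.6% were called against 10.5% of all genes tested, and the median log2 fold change was -0.08. Without any one of the libraries limma called 0 of these genes, and the number of them under an unadjusted p of 0.05 was 29 or 18 when the first or the second G0 library was left out, and 17 or 20 for the first or the second G2 library. Of the 13 calls, 5 held under all the other settings, namely those of H2-Q8, Mr1, Ifi30, Vtcn1 and Ulbp1. The 8 others, Tapbp, H2-Q2, Irf7, Irf8, Irf9, Usp18, Rela and Dnmt1, were lost without the intensity trend, at adjusted p from 0.0525 to 0.155. The last 6 of these were also lost with no filter on low values, at adjusted p from 0.0519 to 0.0658.

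**Figure D3:**
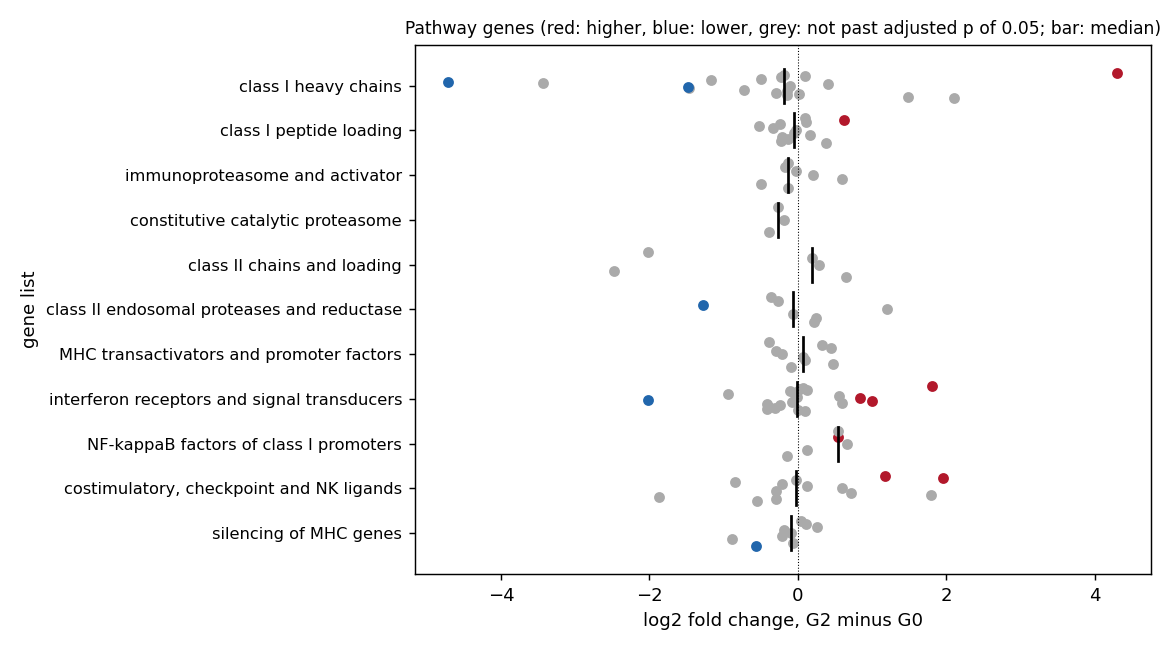
Log2 fold change, G2 minus G0, of every tested gene of the pathway lists; each point is a gene, red higher in G2, blue lower, grey not past the limma threshold, and the black bar is the median of the list. Medians lie close to 0 in most lists, and the list of NF-kappaB factors has the highest, at 0.54.

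Among 19 tested class I heavy chain and related genes, 2 fell and 1 rose, where 10.5% of all genes tested were called. The list median was -0.19, also with the genes that were at 0 in a group placed at their bound. H2-Q2, a nonclassical (class Ib) gene of the Q region, fell 2.79-fold, from 231.7 and 280.4 normalized counts in G0 to 80.7 and 102.6 in G2 (limma adjusted p = 0.0133). H2-Q8 fell from 20.6 and 30.5 to no count at all in G2, a fall of at least 8.58-fold against a floor of 3 counts per library (limma adjusted p = 0.00547). The Q genes are closely related copies and their counts are uncertain for that reason: 25.2% of the windows of H2-Q7 and 7.58% of those of H2-Q2 recur in another H2 gene, and H2-Q8 was not matched to an annotated transcript. H2-Q7 was at 33.4 and 79.2 in G0 and at 1.0 and 10.8 in G2 and just missed the threshold (adjusted p = 0.0524), while H2-Q4 was at 272.0 and 292.6 in G0 and at 232.0 and 295.2 in G2 (adjusted p = 0.770). The T region genes H2-T22 and H2-T23 overlapped between groups as well; the latter encodes Qa-1, the ligand of NKG2A receptors, and was at 619.6 and 952.8 in G0 and at 680.7 and 976.5 in G2. Mr1, which presents vitamin B metabolites to MAIT cells, rose from a count of 0 in both G0 libraries to 11.1 and 31.3 normalized counts, at least 7.07-fold higher (limma adjusted p = 0.0135). Cd1d1, which presents lipids to NKT cells, was at 9.8 and 1.0 in G0 and at 14.1 and 25.4 in G2, short of the threshold (adjusted p = 0.170).

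**Figure D4:**
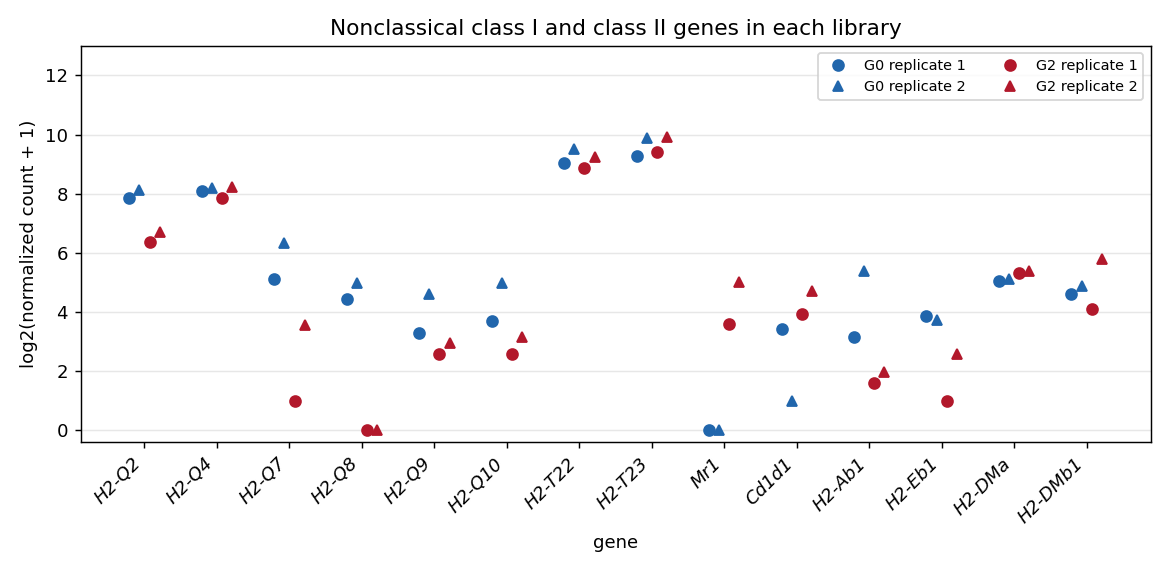
Levels of nonclassical class I and class II genes as log2(normalized count + 1), drawn as in the plot of the members. H2-Q2 and H2-Q8 are lower in both G2 libraries, and Mr1 is at 0 in both G0 libraries. The red points of H2-Ab1 and H2-Eb1, at a few counts, lie under the blue ones.

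Of 13 peptide loading genes 1, Tapbp, rose and 0 fell, with a median of -0.05, where 10.5% of all genes tested were called. The chaperones of the loading complex did not pass. Pdia3, a thiol oxidoreductase, was at 10710 and 10007 normalized counts in G0 and at 10084 and 9898 in G2 (limma adjusted p = 0.842). Calr, the gene of calreticulin, was at 16127 and 16522 in G0 and at 13920 and 13883 in G2 (adjusted p = 0.348). Tapbpl, which encodes the tapasin-related protein TAPBPR, was at 239.6 and 283.4 in G0 and at 270.3 and 284.4 in G2 (adjusted p = 0.801). Of 7 genes of the immunoproteasome and its activator none passed limma over all genes, and 0 had an unadjusted p under 0.05. Psmb8 and Psmb9, the inducible catalytic subunits encoded beside the Tap genes, were low, at 25.5 to 51.8 and 50.1 to 66.0 in G0 and at 33.3 to 92.9 and 53.5 to 83.1 in G2. The most abundant of the list were Psme3, a subunit of the nuclear activator, at 9402 and 7072 in G0 and at 7816 and 7078 in G2, and Psme2, a subunit of the interferon-inducible activator, at 1357 and 1487 in G0 and at 1099 and 1441 in G2. The 3 constitutive subunits included 0 that passed limma and 0 at an unadjusted p under 0.05 (median -0.27), with Psmb5 at 1551 and 1864 in G0 and at 1134 and 1491 in G2, and Psmb6 at 1304 and 1705 against 1202 and 1420.

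Class II genes were at low levels throughout. Of 11 written, 5 had a row and all 5 were tested, with 0 that passed limma and 2 at an unadjusted p under 0.05. H2-Ab1, the class II beta chain, had 7.9 and 40.6 normalized counts in G0 and 2.0 and 2.9 in G2 (limma adjusted p = 0.101). Its counts summed by group were 48 in G0 (exact Poisson interval 35.4 to 63.6) and 5 in G2 (1.62 to 11.7). These intervals cover counting error only and not the spread between lines, which was wide in G0, so they do not test the group difference. H2-Eb1 had 13.7 and 12.2 in G0 and 1.0 and 4.9 in G2 (adjusted p = 0.115). The G2 lines were below the G0 lines for both of these chains, whereas the Cd74 groups overlapped and the peptide exchange subunit H2-DMa was at 32.4 and 33.5 in G0 and at 39.3 and 41.1 in G2 (adjusted p = 0.634). Markers of professional antigen-presenting cells were read beside these genes. Of 12 macrophage markers 6 had a row, with a summed level of 2121 to 3342 in G0 and 3277 to 4098 in G2 that came almost wholly from Cd14 and Cd68, and Itgam was at 0 throughout. Of the 5 tested 2 rose and 0 fell, where 10.5% of all genes tested were called. Cd68 was at 1129 and 2110 in G0 and at 1151 and 1892 in G2 (limma adjusted p = 0.918). Fcer1g and Mrc1 were at 3.0 or less in every library. Cd14, the coreceptor for lipopolysaccharide, rose from 990.7 and 1230 in G0 to 2106 and 2197 in G2 (limma adjusted p = 0.0107). Csf1r, the receptor of macrophage colony-stimulating factor, rose from 0.0 in both G0 libraries to 16.1 and 4.9 in G2 (limma adjusted p = 0.0431). Both calls were lost when any 1 library was left out (adjusted p from 0.105 to 0.246) and without the intensity trend (0.0845 and 0.0715). The dendritic cell list summed to 4.1 to 18.7 in G0 and 12.1 to 21.5 in G2, with Itgax, Batf3 and Ccr7 at 0 in all libraries, and the B cell list summed to 3.0 to 3.9 and 2.0 to 4.0. The part of such cells in the class II values, and in the rise of Mr1, was not tested.

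Among 7 endosomal proteases and the thiol reductase of class II processing, 1 fell and 0 rose, where 10.5% of all genes tested were called. Ifi30, which encodes the reductase GILT that opens disulfide bonds of endosomal antigens, fell 2.42-fold, from 2073 and 2345 normalized counts in G0 to 964.1 and 859.2 in G2 (log2 fold change -1.28, SE 0.14, limma adjusted p = 0.00326). The cathepsin gene Ctsd was at 16226 and 16559 in G0 and at 19553 and 19535 in G2 (adjusted p = 0.319), and Ctss, the main invariant chain protease of antigen-presenting cells, was at 1.0 to 15.1 over the 4 libraries.

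The factors that bind MHC promoters had 0 of 9 tested genes past the limma threshold and 1 at an unadjusted p under 0.05. That 1 was Rfx5, the DNA-binding RFX subunit, at 692.2 and 632.8 normalized counts in G0 and at 916.7 and 877.8 in G2 (adjusted p = 0.104). The most abundant were the NF-Y subunit genes Nfyc, at 1641 and 1906 in G0 and at 1464 and 1581 in G2, and Nfya, at 1239 and 1094 against 1278 and 1223. Of 5 NF-kappaB subunits 1 rose, where 10.5% of all genes tested were called. Rela, the p65 subunit, rose 1.46-fold, from 4205 and 4085 to 6387 and 5726 (adjusted p = 0.0465). Relb was at 775.7 and 780.1 in G0 and at 1044 and 1229 in G2 (adjusted p = 0.0637).

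Of 22 interferon receptors and signal transducers 3 rose and 1 fell, with a median of -0.02. Of all genes tested, 5.93% were called higher and 4.56% lower. Irf9, the DNA-binding part of the complex that type I and type III interferons activate, rose from 403.6 and 503.8 normalized counts in G0 to 734.2 and 887.5 in G2 (limma adjusted p = 0.0336). Irf7, which amplifies interferon production, rose from 165.9 and 228.6 to 410.5 and 369.5 (adjusted p = 0.0353), and Usp18, a negative feedback regulator of the interferon receptor, from 12.8 and 8.1 to 37.3 and 39.1 (adjusted p = 0.0428). Irf8 fell from 47.1 and 76.2 to 11.1 and 17.6 (adjusted p = 0.0316). Jak2, Irf2, Ifngr1 and Irf1 did not pass the test. Jak2 was at 557.7 and 493.7 in G0 and at 752.3 and 788.8 in G2 (limma adjusted p = 0.0652). Irf2 was at 716.8 and 658.2 against 1203 and 903.2 (limma adjusted p = 0.0804). Ifngr1, a chain of the interferon gamma receptor, was at 1727 and 1789 in G0 and at 1121 and 1537 in G2 (adjusted p = 0.182), and Irf1 at 791.4 and 977.2 against 653.5 and 663.7 (0.155). Of the interferon genes with a row, Ifng, Ifnb1, Ifnl2 and Ifnl3 had a count of 0 in all 4 libraries. These lie under the floor of 3 counts per library set here, and expression too low to be counted is not excluded. Ifne had 4 counts in G2 replicate 2 alone.

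**Figure D5:**
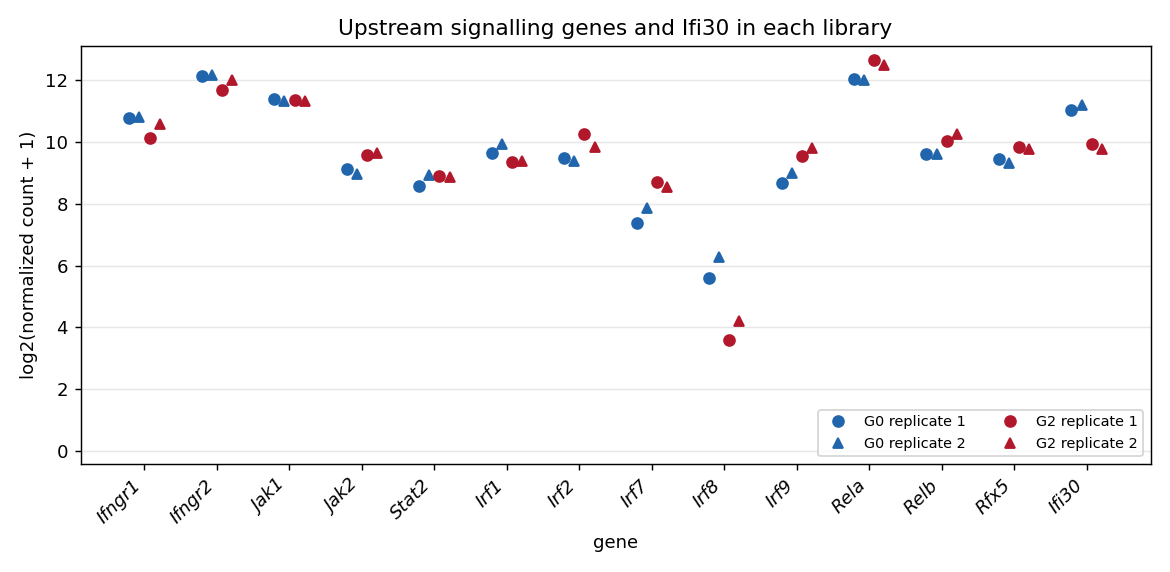
Levels of interferon signalling, NF-kappaB and RFX genes and of Ifi30 as log2(normalized count + 1), drawn as in the plot of the members. Irf7, Irf9 and Rela have both red points above both blue ones, Irf8 and Ifi30 have both below, and Stat2 and Jak1 overlap.

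Genes for ligands that act on T cells and NK cells beside the MHC had 2 that rose and 0 that fell of 13 tested. Of all genes tested, 10.5% were called. Vtcn1, which encodes the inhibitory ligand B7-H4, rose 2.27-fold, from 645.1 and 608.5 normalized counts in G0 to 1329 and 1516 in G2 (limma adjusted p = 0.00450). Ulbp1, a ligand of the activating receptor NKG2D, rose 3.91-fold, from 59.9 and 46.7 to 235.0 and 181.8 (adjusted p = 0.00789). Cd274, which encodes PD-L1, was at 30.4 and 18.3 in G0 and at 17.1 and 14.7 in G2 (adjusted p = 0.469). Cd80 was at 16.7 and 8.1 in G0 and at 55.5 and 33.2 in G2 (limma adjusted p = 0.0685). Cd40 went the other way, from 16.7 and 10.2 to 2.0 and 3.9 (limma adjusted p = 0.0969). Rae1, counted in this list, is the symbol of an mRNA export factor and not of an NKG2D ligand. Of 9 genes of chromatin silencing 1 fell, near the share over all genes. Dnmt1, the maintenance DNA methyltransferase, went from 4599 and 5005 to 3216 and 3269 (limma adjusted p = 0.0374). It missed the threshold when libraries were scaled to the same total (limma adjusted p = 0.0531).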

How the data were processed

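RNA from 4 colonoid lines was sequenced. Per the submitters' processing notes, the build was mm10 and the tools were DESeq2 1.32.0, R 3.5.2, StringTie 2.1.1, HISAT2 2.1.0 and bcl2fastq 2.20.0, with no role or order given. Annotation, strand setting and read filters: not given in the sources used here. Log2 values were deposited by the authors with the same lowest value, 6.508, in every library, the shape of a variance-stabilizing transformation. Inverting it and finding 1 scale factor per library gave whole numbers for 100% of values (tolerance 0.001), which may be rounded estimates.

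Levels are these counts divided by the authors' size factors. limma 3.58.1 in R 4.3.3 (eBayes with intensity trend, group as the only term) was fitted to log2(normalized count + 1) of 13981 genes with a mean of at least 1, with two-sided Benjamini-Hochberg adjusted p and a threshold of 0.05; log2 fold changes understate the change of low genes. The steps were tested on simulated data. Members, lists and tests were chosen with earlier results of these data known. All members were named. Of each pathway list, the genes past the threshold, or the most abundant where none passed, were named. Other list genes were chosen after their values were seen. Some list genes are not reported here. The motif GAANNGAAA and the NF-kappaB element of H2-K1 were added after the gene values were seen. H2-K1 and H2-D1 matched none of the interferon response and NF-kappaB forms planned before. Motifs were searched in the 250 bases before a start, not in the planned window that ran on into the transcript. Exon lengths and transcripts are from GENCODE M21 (98.3% of tested genes had a length) and positions and promoters from RefSeq GRCm38.p6. Alternatives were another pseudocount, filter, scaling, variance prior, the deposited log2 scale, a replicate term, and leaving out each library.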

Additional observations from a re-analysis of the deposited data

How the results depend on the processing

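The count of members called was 1 with every other pseudocount, filter and scaling and on the deposited log2 scale, and 0 without the intensity trend, where Tapbp kept a log2 fold change of 0.62 (adjusted p = 0.133) and 623 genes of the whole table, against 1467, and 5 of the pathway lists were called. With no filter on low values 7 list genes were called, against 13. Leaving out each library gave 0 members, 0 to 2 genes of the whole table and 0 list genes past the limma threshold, and the Tapbp value ranged from 0.53 to 0.71; at an unadjusted p under 0.05 there were 1 to 2 members and 2431 to 3234 genes. Small values changed sign when a library was left out: H2-K1 ranged from -0.15 to 0.17, H2-D1 from -0.30 to 0.01 and Tap2 from -0.03 to 0.25. H2-K1 taken as part of the summed heavy chains was at -0.11. Fewer samples leave limma with fewer degrees of freedom, and the cause of the other changes was not tested. The labels give both groups replicate numbers but tie no numbers together. Deviations of same-numbered libraries correlated at 0.109 across genes, which are not independent. With a replicate block 3503 genes, 32 list genes and 2 members were called, the second being B2m at 0.38 (adjusted p = 0.0403). Scaling to the same total moved the median of all genes by 0.065. Depth limits Nlrc5, Ciita and the class II chains.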

Other observations

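The nearest neighbours of Tapbp on chromosome 17, chosen after the Tapbp value was seen, were read beside it. Of the 5 genes with a row on each side, 1 was called, where 10.5% of all genes tested were called. It was Kifc1, a mitotic kinesin, which fell from 1304 and 1458 normalized counts in G0 to 924.8 and 872.9 in G2 (limma adjusted p = 0.0361). The adjacent genes Zbtb22 and Rgl2 stood at 811.1 and 899.0 against 815.9 and 873.9, and at 616.6 and 711.1 against 735.2 and 745.8 (adjusted p = 0.953 and 0.532).

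The 3 genes whose mean-centred log2 values over the 4 libraries lay closest to those of Tapbp were Zyx, Nptxr and Aggf1, with root mean square differences of 0.0077, 0.019 and 0.021, among genes averaging 20 or more normalized counts. Zyx, which encodes the focal adhesion protein zyxin, was at 3573 and 3494 in G0 and at 5099 and 5708 in G2.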
